A study of Mus musculus with 16 samples.

Results

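The genes described here are the Rab small GTPases and the Rab-named proteins that regulate or bind them. Members were the probes whose platform symbol begins with Rab and a digit and that were detected (p-value under 0.05) on each of the 2 arrays of a treatment group, in 1 group or more. That gave 70 of the 100 Rab-named probes on the array, for 49 of 66 genes, among 12282 probes detected of 25697 in all. Of these genes, 42 encode Rab GTPases and 7 encode partners that carry the name without being GTPases (Rab11fip3, Rab11fip5, Rab3gap1, Rab3gap2, Rab3il1, Rab3ip and Rab5if). The probes nearest the threshold inside were those of Rab4a and a second Rab1b probe, with detection p-values of 0.0426 and 0.0313, and those nearest outside were Rab37 and Rab11fip2, with 0.0539 and 0.0677. The 17 genes without a detected probe included Rab17, Rab20, Rab25, Rab27b, Rab3b, Rab3c and Rab40b.

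Rab proteins are molecular switches on membranes. Exchange factors load them with GTP, GTPase-activating proteins (GAPs) turn them off, and GDI returns them to the cytosol. Each GTP-bound Rab recruits effectors such as motors, tethers and kinases to a particular compartment, so the family marks the steps of secretion, endocytosis, phagosome maturation and lysosome biogenesis. In macrophages several members act on Toll-like receptor 4 (TLR4), the receptor for bacterial lipopolysaccharide (LPS): Rab10 and Rab11a help to deliver it to the surface and to phagosomes, and Rab7b sends it to lysosomes.

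RNA of primary bone marrow-derived macrophages was measured on Illumina mouse bead arrays. The donors were male, wildtype c57Bl6/J mice aged 10 weeks. Cells were held overnight in ethanol vehicle or in 1 µM dexamethasone (Dex), a synthetic glucocorticoid, and were then left without stimulus or given LPS. There were 2 experiments, with LPS for 3 h or for 6 h, and each had 2 arrays for each of 4 treatments (unstimulated, Dex, LPS, Dex plus LPS), which makes 16 arrays. By their labels these pairs are technical replicates. A p-value here therefore reflects array-to-array spread, not that between mice or cultures, and in whole cultures fewer cells of a type and less RNA per cell cannot be told apart.

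Arrays detected 10407 to 11921 probes, and the median residual SD of the Rab-named genes on the log2 scale was 0.0845 at 3 h and 0.167 at 6 h, against 0.113 and 0.202 over all genes tested. All 7 macrophage markers were detected in every group, and none of 5 T cell and none of 3 erythroid markers was detected on both arrays of any. The summed erythroid signal was nevertheless 388 on 1 LPS array at 6 h and 972 on the other, and Hba-a1 ran from 115 to 681 over the arrays. Of 3 B cell markers 1, Cd79b, was detected in 5 groups, and of 5 stromal markers 1, Pecam1, in 1 group. The 6 markers of neutrophils and their precursors were detected in every group, at a summed deposited signal of 5192 to 5524 on the unstimulated, 5546 to 6086 on the Dex, 4753 to 4771 on the LPS and 4136 to 4821 on the Dex plus LPS arrays at 6 h. Their part in the results below was not tested. In 2 respects the data went against the labels. At 3 h, the arrays labelled unstimulated and Dex gave deposited Tnf signals of 61390 to 62850, close to the top of the scale, as the LPS arrays did, whereas at 6 h the unstimulated arrays gave 1605 and 2175 (levels from tables processed separately). Il6, lower on the scale, read 1930 and 1952 on the 3 h arrays labelled unstimulated and 2778 and 3064 on those labelled LPS, against 150 and 167 unstimulated at 6 h. Fkbp5, a glucocorticoid target, read 231 and 248 on the arrays labelled Dex at 3 h and 229 and 248 on those labelled unstimulated. The labels of those arrays are in doubt, and the comparison used from the 3 h experiment is Dex plus LPS against LPS, where Fkbp5 read 1763 and 1982 against 227 and 275. In the other respect, a deposited cubic spline-normalized table of the 6 h samples did not rank probes like the unnormalized 6 h table (rank correlation 0.863 to 0.895 for arrays of the same label, against 0.936 to 0.951 between replicate arrays), and Fkbp5 there read 414 and 464 unstimulated and 414 and 426 with Dex. Results come from the unnormalized table, with the values of the cubic spline table beside them.

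Promoter sequences are given for genes whose transcript levels moved most and for which RefSeq (GRCm38.p6) windows were at hand, as they were for 44 of the 49 genes. Each line holds the 250 bases before the outermost start in that table, 5′ to 3′ on the gene's strand. Rab15 is shown as the gene raised by Dex, Rab3il1 and Rab19 as genes lowered by LPS, and Rab33a as a gene raised by LPS.

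Rab15 promoter (chr12:76822525-76822774, minus strand): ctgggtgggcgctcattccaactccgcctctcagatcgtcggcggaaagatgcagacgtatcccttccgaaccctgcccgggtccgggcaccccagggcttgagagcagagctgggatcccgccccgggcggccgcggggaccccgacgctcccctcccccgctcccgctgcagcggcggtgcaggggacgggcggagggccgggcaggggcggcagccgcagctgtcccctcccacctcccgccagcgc
Rab3il1 promoter (chr19:10001419-10001668, plus strand): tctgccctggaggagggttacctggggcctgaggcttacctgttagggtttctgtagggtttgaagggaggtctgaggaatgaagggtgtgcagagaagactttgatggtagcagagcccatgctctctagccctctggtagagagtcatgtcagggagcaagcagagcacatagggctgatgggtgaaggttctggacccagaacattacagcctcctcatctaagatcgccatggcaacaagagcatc
Rab19 promoter (chr6:39381103-39381352, plus strand): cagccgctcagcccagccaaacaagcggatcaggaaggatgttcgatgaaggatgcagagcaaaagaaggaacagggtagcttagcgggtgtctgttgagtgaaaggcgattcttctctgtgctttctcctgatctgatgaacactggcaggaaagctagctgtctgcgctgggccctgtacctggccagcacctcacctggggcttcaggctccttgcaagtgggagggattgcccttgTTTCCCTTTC
Rab33a promoter (chrX:48519035-48519284, plus strand): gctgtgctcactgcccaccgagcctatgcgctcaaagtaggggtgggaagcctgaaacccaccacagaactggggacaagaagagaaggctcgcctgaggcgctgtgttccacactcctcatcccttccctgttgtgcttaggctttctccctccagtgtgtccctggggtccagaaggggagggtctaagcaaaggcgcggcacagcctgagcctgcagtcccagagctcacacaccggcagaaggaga

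The windows were searched on both strands for 5 motifs, and capitals mark the matches. An interferon response motif, GAAA and GAAA with any 2 bases between, was found once, in the last 10 bases before the start of Rab19 on the opposite strand, and 2.98% of the 32851 windows in the table held one. The letters of an NF-kB motif (GGG and TTTCC with any 2 bases between, in 1.41% of windows), a glucocorticoid receptor motif (ACANNNTGT, 5.84%), an AP-1 motif (TGANTCA, 6.75%) and an E-box (CACGTG, 6.02%) were in none of these 4 windows. The GC content ran from 53.6% in Rab3il1 to 75.2% in Rab15. A match is a description of letters in this window only.

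The first comparison, LPS against unstimulated at 6 h, asks which Rab genes respond to TLR4 stimulation. LPS lowered more Rab-named genes than it raised, as it did over all genes tested. A gene is called changed here when limma's Benjamini-Hochberg adjusted p over all 7791 genes tested was under 0.05 and the change at least 2-fold. Genes picked by such a test tend to have groups that do not overlap. Separated arrays, where stated, therefore describe the change and add no support. A gene given below as not above background in a group entered the test through its brighter groups, so its call is not independent of that filter. Of 48 Rab-named genes tested, 10 were called lower (20.8%) and 4 higher (8.33%), against 8.72% lower and 8.38% higher over all genes. Counting an adjusted p under 0.05 at any size, 15 were lower (31.2%) and 11 higher (22.9%), against backgrounds of 21.6% and 16.2%. By that count both shares lay above background. The median change of the 48 genes was -0.30 on the log2 scale, beside -0.09 over all genes tested. Scaling arrays to a common median instead of quantile normalization moved the median of all genes to 0.05 and that of the Rab-named genes to -0.08, and then 9 were called lower and 6 higher. The shares of all genes called with that scaling were not computed, so these counts have no background.

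**Figure D1:**
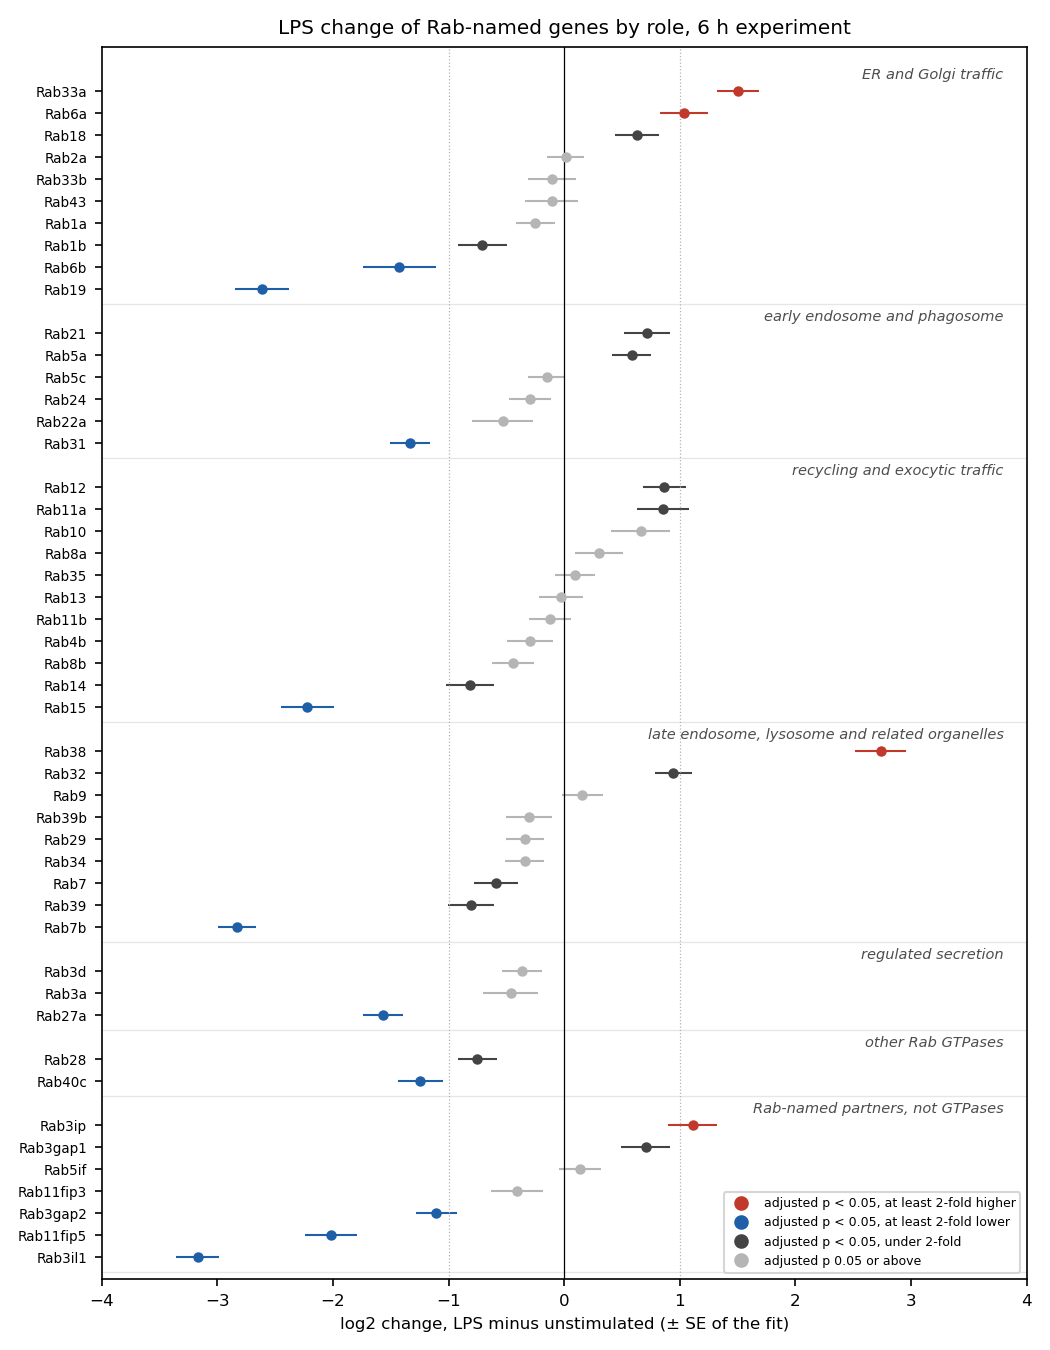
Log2 change (x axis) of each of 48 Rab-named genes, LPS minus unstimulated at 6 h, grouped by role. Points are fitted changes from 2 arrays a group and bars their SE. Dotted lines mark 2-fold. The 4 genes called higher lie at 1.04 to 2.74 and the 10 called lower at -1.11 to -3.17.

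The members of the late endosome and lysosome group spanned almost the whole range. Rab7b, which directs TLR4 to lysosomes, had normalized signals of 8644 and 9258 on the unstimulated arrays and 1237 and 1274 on the LPS arrays. The groups were far apart, a 7.13-fold fall (log2 change -2.83 ± 0.16 SE, adjusted p = 1.34e-06). Its paralog Rab7, the general late endosome and phagolysosome Rab, fell under 2-fold, from 14360 and 18210 to 10530 and 10930 (log2 change -0.59 ± 0.19, adjusted p = 0.0326), while its other 2 probes gave changes of 0.07 and -0.02 that did not pass.

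Rab38 and Rab32, paralogs that build lysosome-related organelles, went up together. Rab38 read 40.9 and 42.5 without stimulus, not above background there, and 316 and 245 with LPS, at least 3.90-fold higher (fitted log2 change 2.74 ± 0.22, adjusted p = 9.84e-06). Its other probe rose too, from 36.3 on both arrays to 90.2 and 86.7 (log2 change 1.29). Rab32, which restricts Salmonella Typhi in mouse macrophages, rose from 18320 on both arrays to 34580 and 35860, just under 2-fold (log2 change 0.94 ± 0.16, adjusted p = 0.00122), and past 2-fold with median scaling (1.28) and in the authors' processed table (1.21). Both members of the pair were higher on each LPS array than on any unstimulated array.

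Rab39, a Rab of phagosome acidification and autophagy, fell under 2-fold (log2 change -0.81, adjusted p = 0.0100), and its paralog Rab39b had a change of -0.30 that did not pass. Rab29, which recruits the kinase LRRK2 to membranes, Rab34 and Rab9 had changes of -0.34, -0.34 and 0.16 and did not pass, although another Rab34 probe (-0.80) and another Rab9 probe (0.68) did, under 2-fold. In all, of 9 genes in this group 1 was called higher and 1 lower, and 2 rose and 3 fell when changes under 2-fold are counted.

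Among Rabs of the endoplasmic reticulum and Golgi, 2 genes were called higher and 2 lower of 10 tested, and paralogs parted. Rab6a, the main Rab of retrograde Golgi traffic, read 685 and 809 without stimulus and 1420 and 1648 with LPS (2.05-fold, log2 change 1.04 ± 0.21, adjusted p = 0.00335). One other probe rose by 0.59 (adjusted p = 0.0401 over all probes), and the remaining one gave -0.04 and did not pass. Without LPS replicate 2 or unstimulated replicate 1 the change was 0.93 and 0.92, under 2-fold. Rab6b, the paralog best known from neurons, read 171 and 115 without stimulus and 42.3 and 64.5 with LPS, at least 1.98-fold lower (log2 change -1.43 ± 0.32, adjusted p = 0.00570). Without LPS replicate 1 this call was lost (log2 change -1.12, adjusted p = 0.0605).

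Rab33a, a Golgi Rab with vesicle functions in neurons, rose from 67.9 and 60.3, not above background, to 168 and 196, at least 2.54-fold (log2 change 1.50 ± 0.18, adjusted p = 1.45e-04). Its paralog Rab33b, which binds the autophagy factor ATG16L1, had a change of -0.11 that did not pass. Rab19, a Golgi-associated Rab, fell from 368 and 387 to 55.5 and 68.6, which is not above background, at least 5.32-fold (log2 change -2.61 ± 0.23, adjusted p = 1.86e-05). Both LPS arrays lay far below both unstimulated arrays for Rab19.

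Of the Rabs that carry cargo from the endoplasmic reticulum to the Golgi, Rab1a (-0.25) and Rab2a (0.01) did not pass. Rab1b passed on its main probe (log2 change -0.71, adjusted p = 0.0263), from 838 and 863 to 503 and 539, but its other 2 probes gave 0.32 and 0.49. Those 2 probes were dim, at 94.0 and 55.3 and at 81.4 and 68.2 without stimulus. Rab18, a Rab of lipid droplets, rose under 2-fold (0.63, adjusted p = 0.0260), and Rab43 had a change of -0.11.

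In the early endosome and phagosome group only Rab31 was called, of 6 tested. Rab31 (also named Rab22b), which works between the trans-Golgi and endosomes, read 9723 and 10020 without stimulus and 3921 on both LPS arrays (2.52-fold lower, log2 change -1.33 ± 0.17, adjusted p = 2.32e-04). Its paralog Rab22a had -0.53 on its main probe, which did not pass, and -0.87 on the other (adjusted p = 0.0146 over all probes). Rab5a, which drives fusion of early endosomes, rose under 2-fold (0.58 ± 0.17, adjusted p = 0.0199), and its other probe gave 1.29 and passed at over 2-fold. Rab5c, a close paralog of Rab5a, had -0.15 and did not pass, and Rab21, a Rab of integrin traffic, rose under 2-fold (0.72, adjusted p = 0.0179).

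Recycling and exocytic Rabs gave 1 call of 11. Rab15, a Rab of recycling endosomes that slows endocytosis, fell from 220 and 201 to 52.3 and 38.7, not above background, at least 2.96-fold (log2 change -2.22 ± 0.23, adjusted p = 5.34e-05). Rab12 (0.87 ± 0.19, adjusted p = 0.00519) and Rab11a (0.85 ± 0.22, adjusted p = 0.0132), the Rab of the recycling compartment, rose under 2-fold, and Rab14, a Rab of early phagosomes, fell under 2-fold (-0.82 ± 0.21, adjusted p = 0.0114). Rab11b had a change of -0.13. Rab10 had 0.66 on its main probe (adjusted p = 0.0653), where the lower unstimulated array read 781 and the higher 1372, and 1.57 on its other probe, which passed at over 2-fold. Rab8a (0.30), Rab8b (-0.44), Rab4b (-0.29), Rab13 and Rab35 did not pass.

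Among secretory Rabs, Rab27a, which docks exosomes and lysosome-related granules, fell from 578 and 540 to 205 and 173 (2.97-fold, log2 change -1.57 ± 0.17, adjusted p = 8.67e-05). Rab3a and Rab3d, Rabs of regulated exocytosis, had changes of -0.46 and -0.36 that did not pass. Of the remaining GTPases, Rab40c, which carries a SOCS box of ubiquitin ligases, fell from 2659 and 2717 to 1156 and 1115 (2.37-fold, log2 change -1.24 ± 0.20, adjusted p = 8.01e-04), and Rab28 fell under 2-fold on its main probe (-0.75, adjusted p = 0.00560). The other Rab28 probe read 1658 and 1552 without stimulus and 1316 and 1919 with LPS, so its groups overlapped.

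Of 7 Rab-named partners 1 was called higher and 3 lower. Rab3il1 (GRAB), an exchange factor for Rab3a and Rab8 proteins, read 252 and 322 without stimulus and 30.8 and 32.6 with LPS, not above background, at least 4.01-fold lower (log2 change -3.17 ± 0.18, adjusted p = 1.41e-06). A second probe was called lower too (-1.22), but it was dim and detected in 1 group only, at 66.4 and 97.2 without stimulus and 32.8 and 36.4 with LPS. Rab3ip (Rabin8), a related exchange factor for Rab8, moved the other way, from 65.3 and 55.8, not above background, to 128 and 132, at least 1.83-fold (log2 change 1.11 ± 0.21, adjusted p = 0.00224). Without unstimulated replicate 2 the Rab3ip change was 1.00, just under 2-fold.

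Rab11fip5, a Rab11 effector, fell from 5560 and 4812 to 1302 and 1254 (4.05-fold, log2 change -2.02 ± 0.22, adjusted p = 8.74e-05), and its other probe was also called lower (-1.15). Rab11fip3 had a change of -0.41 that did not pass. The 2 subunits of the complex that inactivates Rab3 and activates Rab18 parted: Rab3gap2, the noncatalytic subunit, fell from 2182 and 2405 to 1054 and 1074 (2.15-fold, log2 change -1.11 ± 0.17, adjusted p = 8.34e-04), and Rab3gap1, the catalytic subunit, rose under 2-fold (0.71 ± 0.21, adjusted p = 0.0246).

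Some calls depended on background correction. Without it the LPS changes of Rab33a, Rab3ip, Rab6a and Rab6b were 0.70, 0.48, 0.92 and -0.63, all under 2-fold, whereas Rab38, Rab19, Rab15 and Rab3il1, each also with a group at background, were still called. Rab3gap2 was under 2-fold with median scaling (-0.92). Of the cell markers, the neutrophil gene Ltf (-1.03) was called lower and the macrophage gene Cd14 (1.22) higher with LPS. Cd79b (-0.996), Mmp8 (-0.99), the macrophage genes Csf1r (-0.67) and Mertk (-0.61), and Camp (0.62) passed under 2-fold. Their part in these results was not tested.

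**Figure D2:**
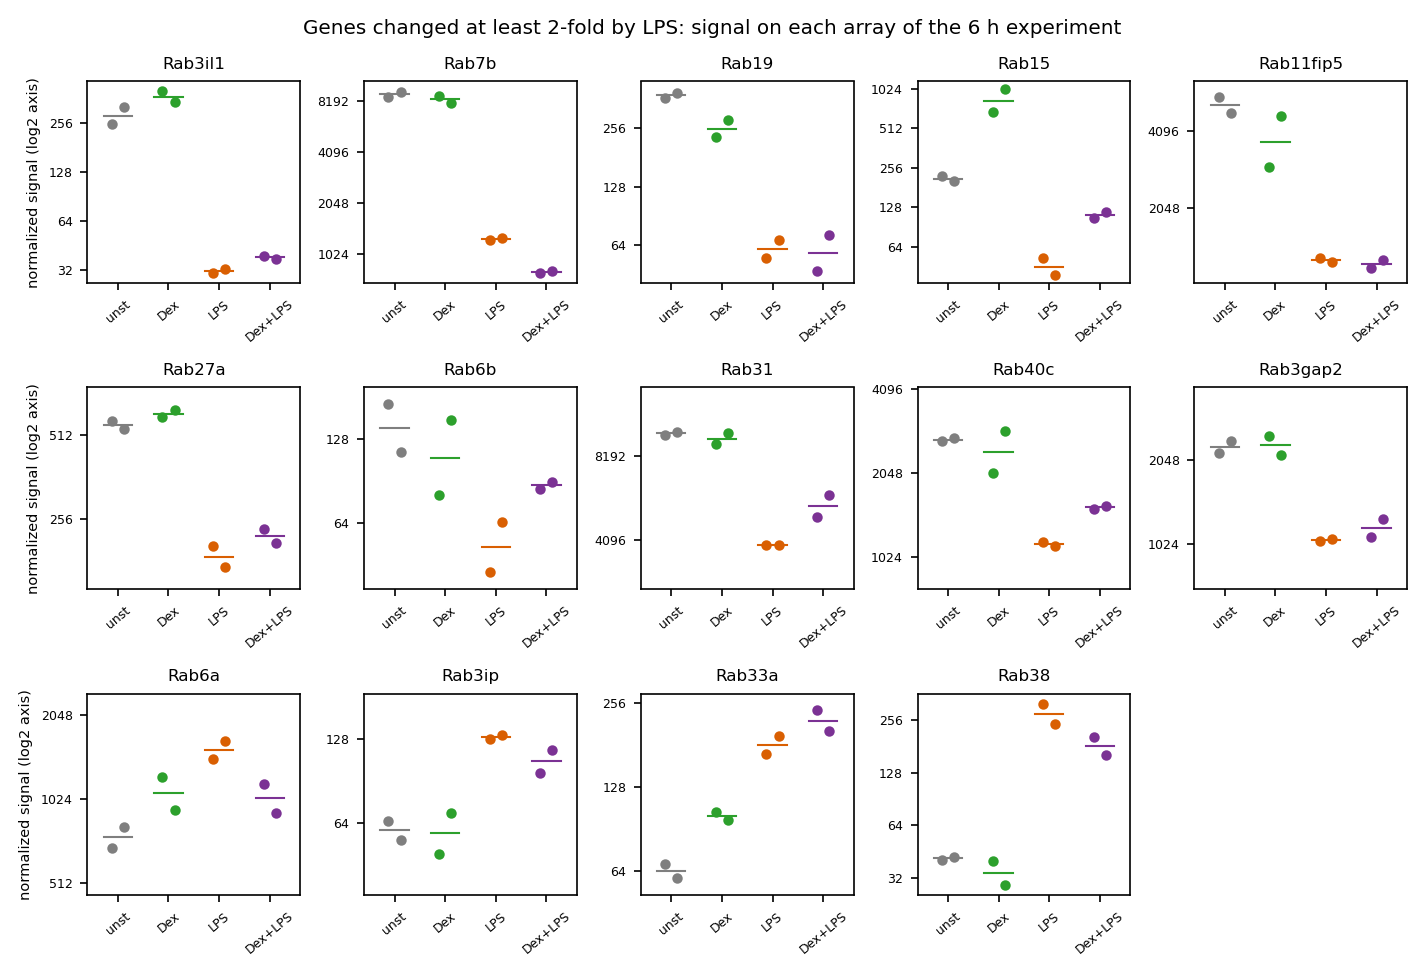
Normalized signal (y axis, log2 spacing) of the 14 genes called changed by LPS on each of the 8 arrays of the 6 h experiment. Points are arrays and bars the geometric mean of 2. For each gene both LPS arrays lie outside the range of the unstimulated arrays, which adds no support, since the genes were picked by this comparison. Rab15 read 679 and 1010 with Dex, well above its other groups.

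In 20 further probes of 15 genes, 6 probes of 5 genes gave an LPS change of the opposite sign to the main probe (Rab1b, Rab24, Rab6a, Rab7 and Rab8b), and 5 lay over 1 log2 from it. None of those opposite changes passed an adjusted p of 0.05.

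The deposited cubic spline table gave smaller LPS changes. Of the 14 called genes, 13 had the same sign there, 8 passed an adjusted p of 0.05 and 2 were also called, Rab40c (-1.26) and Rab7b (-1.17). Over all genes tested, 0.552% were called lower and 2.07% higher in that table. The matching shares among all genes called in the unnormalized table were not computed, so these counts have no background of their own. Rab7b read 12690 and 12750 unstimulated and 5925 and 5426 with LPS in the cubic spline table, and Rab40c 4142 and 4192 against 1714 and 1765. Rab19 (-0.75), Rab11fip5 (-0.75), Rab3il1 (-0.68), Rab31 (-0.50), Rab27a (-0.26) and Rab6a (0.41) passed under 2-fold. Rab38 read 176 and 164 against 193 and 182 there (0.14, not passing), and Rab15 (-0.10) and Rab33a (-0.12) did not pass either. What sets the tables apart was not tested.

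**Figure D3:**
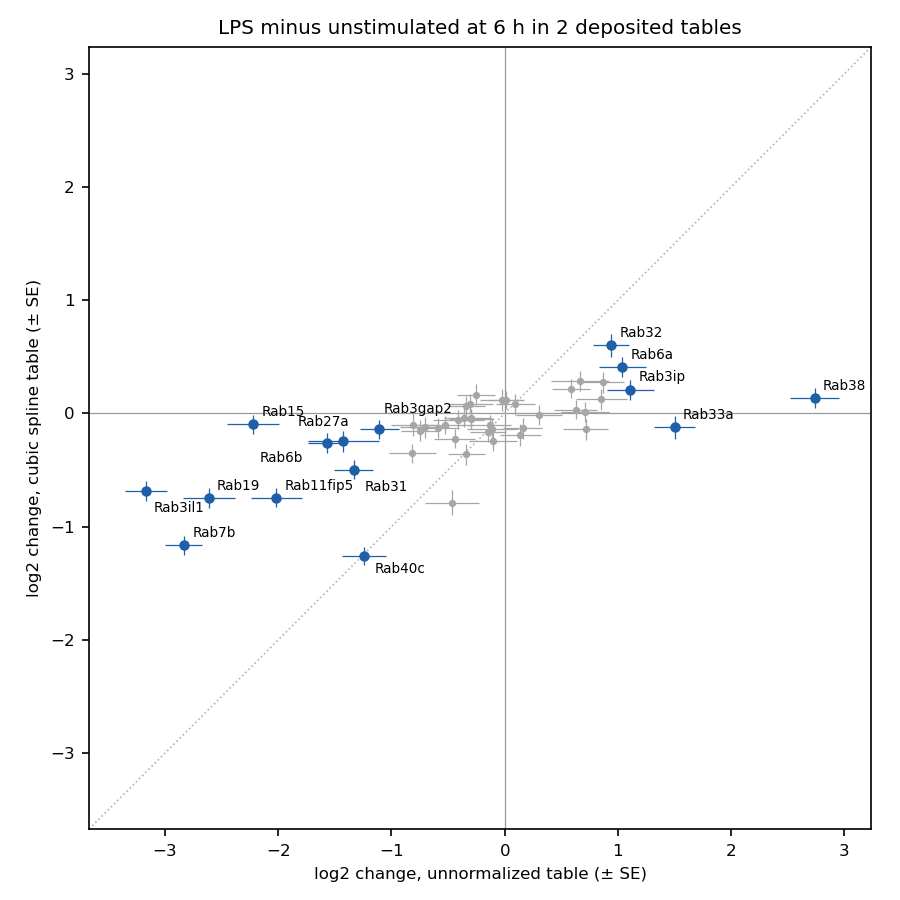
LPS change at 6 h of 48 Rab-named genes in the unnormalized table (x axis, log2) and in the deposited cubic spline table (y axis, log2). Bars are SE of the fit, the dotted line is equality, and named points are the 14 called genes and Rab32. Rab40c lies near the line (-1.24 and -1.26) and most others lie closer to 0 on the y axis.

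Around the Rab-named genes, 78 other genes of Rab regulation were tested, from lists chosen with earlier results of these data known. LPS raised 8 and lowered 7 of them at 2-fold or more, beside 8.38% and 8.72% of all genes. By class, 2 of 20 exchange factors were higher and 1 lower, 2 of 26 GAPs higher and 3 lower, 4 of 28 effectors higher and 3 lower, and none of 4 GDI and prenylation genes was called. Dennd3, an exchange factor for Rab12, rose by 2.02 ± 0.29 on the log2 scale (adjusted p = 4.76e-04), Appl1, a Rab5 effector, by 1.86 ± 0.20 (8.36e-05), and Lrrk2, the kinase that phosphorylates Rab8a, Rab10 and Rab12, by 1.85 ± 0.16 (1.94e-05). The largest falls were in Tbc1d2 (Armus), a GAP for Rab7 (-2.59 ± 0.20, adjusted p = 8.24e-06), the effector Mical1 (-2.35 ± 0.25) and Tbc1d8 of the same GAP family (-2.32 ± 0.17).

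Dex alone, the second comparison, shows what the glucocorticoid does to resting macrophages, and it changed a single Rab-named gene. Rab15 read 220 and 201 on the unstimulated arrays and 679 and 1010 on the Dex arrays (3.94-fold higher, log2 change 1.98 ± 0.23, adjusted p = 0.00102). Both Dex arrays lay above both unstimulated arrays, and the call held under each alternative except the cubic spline table, leaving out any 1 array included. Called genes made up 1.62% higher and 1.89% lower of all genes tested. At an adjusted p under 0.05 of any size the backgrounds were 3.22% and 3.59%, and no other member passed, and 10 of 48 had an unadjusted p under 0.05.

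Rab33a came nearest, from 67.9 and 60.3 to 105 and 97.9 (log2 change 0.66 ± 0.18, adjusted p = 0.0555). The lowest fitted change was -0.58, for Rab13 (adjusted p = 0.0932). Rab7b, Rab31 and Rab27a, all lowered by LPS, had Dex changes of -0.10, -0.06 and 0.13. Median scaling moved the median over all genes from -0.01 to 0.27 in this comparison, so small changes here have no settled sign. In the cubic spline table Rab15 read 343 and 348 unstimulated and 331 and 335 with Dex (-0.05), and no gene at all was called for Dex there. Of the neutrophil markers, Camp (-1.28) and Ltf (-1.13) were called lower and Mmp8 (1.85) higher with Dex on the unnormalized arrays, and of the macrophage markers Mertk (1.78) was called higher. Of the Rab pathway genes, the GAP Tbc1d22b was called higher (1.40 ± 0.26, adjusted p = 0.0116).

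Dex plus LPS against LPS, the third comparison, shows what Dex does in stimulated cells, and it is the one measured in both experiments. Rab15 was again higher with Dex. At 3 h it read 92.0 and 92.7 with LPS and 453 and 404 with Dex plus LPS (4.63-fold, log2 change 2.21 ± 0.27, adjusted p = 0.00251). At 6 h it read 52.3 and 38.7, not above background, against 106 and 118, at least 1.58-fold higher (log2 change 1.32 ± 0.23, adjusted p = 0.00771). Both arrays with Dex lay above both without in each experiment. It was the one Rab-named gene called at either time, of 49 tested at 3 h (background 1.16% higher, 2.28% lower) and 48 at 6 h (1.32% higher, 2.46% lower).

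Median scaling moved the median of all genes from 0.06 to 0.20 at 6 h. Without Dex plus LPS replicate 1, Dex plus LPS replicate 2 or LPS replicate 2 the 6 h change was 1.39, 1.24 and 1.10, still over 2-fold, but the adjusted p was 0.0629, 0.0995 and 0.0870, and with no background correction the change was 0.56 (adjusted p = 0.0622). The 3 h call was kept under each alternative run. When the 4 group means were fitted with a term for experiment, each experiment counting as 1 repeat, Rab15 gave 1.76 ± 0.22 (adjusted p = 3.88e-04). The difference between the 6 h and the 3 h change was -0.90 ± 0.37 (adjusted p = 0.224) and did not pass. Of the cell markers, Mmp8 was called higher in both experiments (1.41 at 6 h and 1.66 at 3 h) and Fcgr1 lower in both (-1.03 and -1.18), and Pecam1 was called lower at 3 h (-1.11). Ltf was lower under 2-fold in both (-0.79 and -0.49), as were Mpo (-0.38) and Csf1r (-0.29) at 3 h, where Mertk (0.99) and Itgam (0.96) were higher under 2-fold. Their part in these results was not tested.

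Rab7b went lower with Dex in both experiments, under 2-fold. It read 2366 and 2423 with LPS and 1355 and 1223 with Dex plus LPS at 3 h (log2 change -0.90 ± 0.08, adjusted p = 9.00e-04), and 1237 and 1274 against 797 and 813 at 6 h (-0.64 ± 0.16, adjusted p = 0.0410). The arrays with and without Dex did not overlap at either time. In the cubic spline table the 6 h changes of Rab7b (0.17) and Rab15 (-0.06) had the opposite sign, and neither passed. The mean-based fit over both experiments gave -0.77 ± 0.18 (adjusted p = 0.0244). At 6 h the backgrounds at an adjusted p under 0.05 of any size were 3.23% higher and 4.63% lower. Rab3d passed at 6 h (-0.67 ± 0.17, adjusted p = 0.0459) and had -0.09 at 3 h. Across the alternatives other than the cubic spline table, the 6 h changes ran from -0.66 to -0.46 for Rab7b and from -0.74 to -0.60 for Rab3d. For neither gene was the adjusted p under 0.05 in all of them.

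At 3 h, where arrays of a group lay closer together, 7 Rab-named genes passed an adjusted p of 0.05 higher and 7 lower (14.3% each), against 17% and 14.7% of all genes. Rab27a was higher with Dex, at 157 and 120 with LPS against 234 and 238 (0.79 ± 0.14, adjusted p = 0.00896). Rab31 was higher as well, at 4866 and 5021 against 7292 and 7847 (0.61 ± 0.09, adjusted p = 0.00406). Rab6b (0.73), Rab11fip5 (0.41), Rab1b (0.36) and Rab8a (0.27) rose too, all under 2-fold, and Rab15 was the remaining gene.

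Of these genes Rab15, Rab27a, Rab31, Rab6b and Rab11fip5 are among the 10 that LPS lowered at 6 h. Rab7b, also among those 10, went the other way and was lower with Dex at 3 h. The matching overlap over all genes was not computed, so this one has no background. Whether Dex opposes LPS on these genes was not tested by it. In the lower direction at 3 h stood Rab33b (-0.59), Rab38 (-0.54 ± 0.16, from 190 and 170 to 111 and 138), Rab10 (-0.47), Rab35 and Rab18 (both -0.30) and Rab5if (-0.28), beside Rab7b. At 6 h the changes of Rab27a, Rab31, Rab6b and Rab38 were 0.25, 0.47, 0.74 and -0.60 and did not pass. In the fit of group means over both experiments Rab6b passed (0.74 ± 0.18, adjusted p = 0.0281). The test of the 6 h change against the 3 h change called none of 48 Rab-named genes (limma, 8 at an unadjusted p under 0.05), against 0.724% of all genes. Time cannot be told apart from experiment or RNA preparation in that test.

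**Figure D4:**
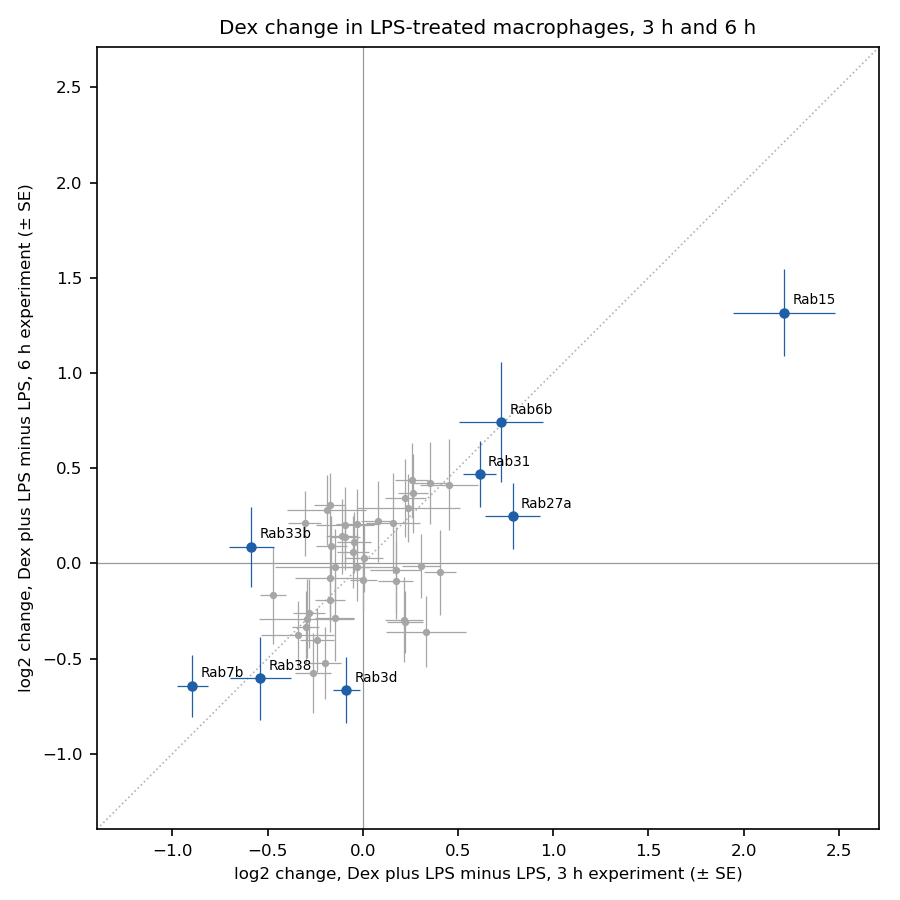
Log2 change, Dex plus LPS minus LPS, of 48 Rab-named genes in the 3 h experiment (x axis) and in the 6 h experiment (y axis), with SE bars and the line of equality dotted. The experiments share no arrays, and time and experiment cannot be told apart. Rab15 stands apart at 2.21 and 1.32, and Rab7b lies at -0.90 and -0.64.

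Among the Rab pathway genes, 6 of 78 were called lower with Dex in LPS-treated cells at 6 h and none higher, beside 2.46% lower and 1.32% higher over all genes. Rin2, an exchange factor for Rab5, fell by 1.57 on the log2 scale (adjusted p = 0.00441), Dennd6b by 1.37 (0.00244) and Rilpl1, which binds phosphorylated Rab8a and Rab10, by 1.25 (0.0219). Rilpl1 was the one such gene called at 3 h (-1.21 ± 0.08, adjusted p = 3.71e-04).

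The LPS response in the presence of Dex, Dex plus LPS against Dex at 6 h, shared no arrays with the response without it. Of the cell markers, Camp (1.54) and Cd14 (1.02) were called higher and Fcgr1 (-1.45), Mertk (-1.79) and Mmp8 (-1.43) lower, and Mpo (-0.92) and Ltf (-0.69) passed under 2-fold. Their part in the results was not tested. Here 3 Rab-named genes were called higher (6.25%) and 6 lower (12.5%) of 48, against 6.76% and 6.74% of all genes. At an adjusted p under 0.05 of any size, 5 were higher (10.4%) and 14 lower (29.2%), against 13.6% and 15.9%. Rab7b fell 10.4-fold, from 8776 and 7932 to 797 and 813 (log2 change -3.37 ± 0.16, adjusted p = 3.91e-07). Rab3il1 fell at least 5.77-fold, from 401 and 345 to 39.4 and 37.6. Rab15 fell 7.38-fold, from the raised Dex level of 679 and 1010 to 106 and 118 (-2.88 ± 0.23), still below the 220 and 201 of unstimulated cells. The Rab15 signal therefore had its highest values with Dex alone and its lowest with LPS alone.

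Rab19 (-2.12), Rab11fip5 (-1.59) and Rab27a (-1.46) were the other genes called lower. Rab38 rose at least 2.98-fold, from 40.1 and 29.4 to 206 and 162, Rab32 rose 2.47-fold, from 15040 and 15310 to 37140 and 37880 (1.31 ± 0.16, adjusted p = 1.98e-04), and Rab33a rose 2.19-fold. In the cubic spline table Rab7b (-0.90), Rab3il1 (-0.84), Rab19 (-0.66), Rab11fip5 (-0.59) and Rab32 (0.58) passed under 2-fold, whereas Rab15 (-0.10), Rab27a (-0.18), Rab38 (0.16) and Rab33a (-0.11) did not pass. Rab40c was the one Rab-named gene called there (-1.11), against 1.98% higher and 0.539% lower of all genes. In all 8 genes were called both without and with Dex, 57.1% of the 14 and 88.9% of the 9, beside 54.1% and 68.5% over all genes called. Of the 6 called only without Dex, 4 (Rab31, Rab40c, Rab3gap2 and Rab3ip) passed under 2-fold with it, and Rab6a (-0.06) and Rab6b (-0.33) did not pass.

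Whether Dex altered the LPS response was tested as the difference of the Dex effects with and without LPS, which called no Rab-named gene (limma, 9 of 48 at an unadjusted p under 0.05), against 0.565% of all genes. The largest differences were -1.10 ± 0.30 for Rab6a (adjusted p = 0.127) and 1.10 ± 0.45 for Rab6b (adjusted p = 0.270). For Rab15 the difference was -0.66 ± 0.32 and for Rab7b -0.54 ± 0.23, with adjusted p-values of 0.341 and 0.284.

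**Figure D5:**
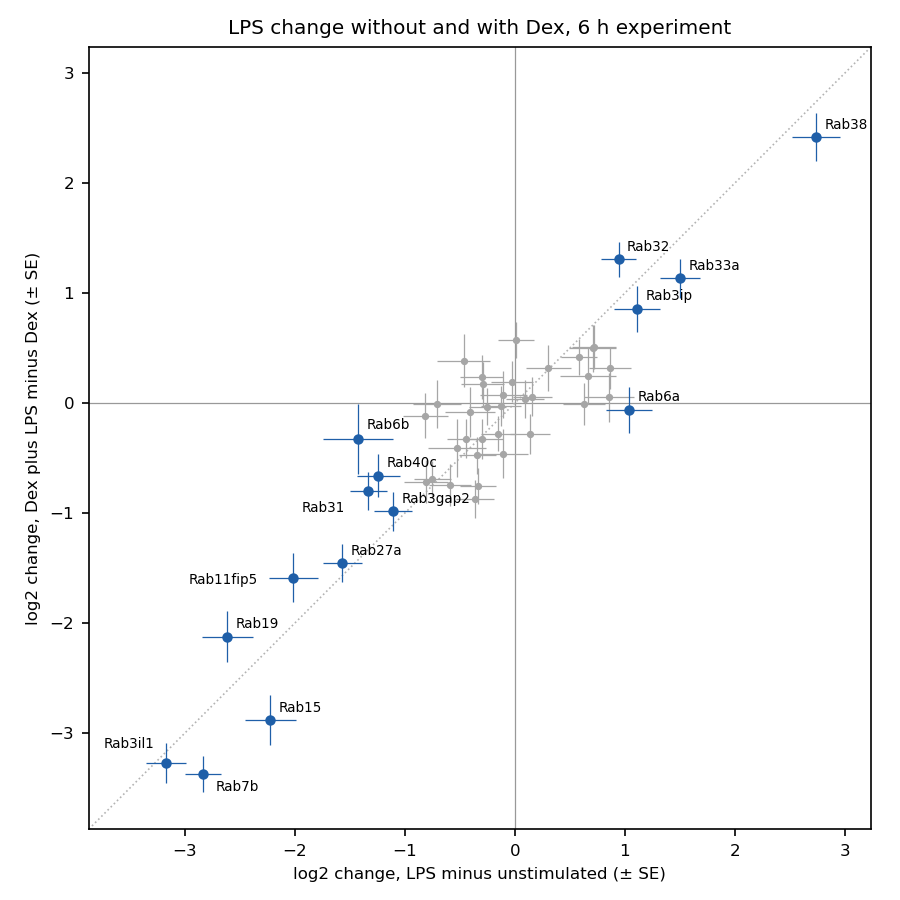
LPS change at 6 h of 48 Rab-named genes without Dex (x axis, log2, LPS minus unstimulated) and with Dex (y axis, log2, Dex plus LPS minus Dex), with SE bars and the line of equality dotted. Named genes were called in at least 1 comparison. Rab3il1 (-3.17 and -3.27) and Rab7b (-2.83 and -3.37) lie lowest, Rab38 (2.74 and 2.41) lies highest, and Rab6a (1.04 and -0.06) lies off the line.

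Levels of the 14 LPS-responsive genes at 3 h can be placed between the 6 h unstimulated level (0) and the 6 h LPS level (1) after normalizing all arrays together, across tables that were processed separately. The 10 lowered genes stood on average at 0.944 on the arrays labelled LPS, at 0.88 on those labelled unstimulated and at 0.82 on those labelled Dex. For the 4 raised genes the positions were 0.77, 0.926 and 0.776. All 679 genes lowered by LPS stood at 0.845, 0.794 and 0.789 in the same order, and all 653 raised at 0.829, 0.798 and 0.796. On the Dex plus LPS arrays the 10 and the 4 Rab-named genes stood at 0.735 and 0.646, and all lowered and raised genes at 0.754 and 0.625. Among the 10, Rab15 alone stood at -0.294 there, and the others ran from 0.524 (Rab6b) to 1.19 (Rab11fip5), so their average hides a wide spread. As labelled, LPS against unstimulated at 3 h called only Rab7b, and in the direction opposite to 6 h. Rab7b went from 1099 and 1137 to 2366 and 2423 (log2 change 1.10, adjusted p = 7.14e-04), against a background of 2.09% higher and 0.834% lower. At an adjusted p under 0.05 of any size 9 were higher (18.4%) and 5 lower (10.2%) of 49, against 16.4% and 18.4% of all genes. Among the 9 was Rab4a (0.78), which was detected in 1 group only and read highest on the arrays labelled LPS (55.1 and 67.9). It entered the test through 1 group, so its rise adds no support. Dex against unstimulated at 3 h called none (limma, 11 at an unadjusted p under 0.05; background 0.535% higher and 0.224% lower), and 3 were higher and 2 lower at any size, against 7.83% and 5.52%. Given the Tnf, Il6 and Fkbp5 values above, neither is read as a response to its label.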

How the data were processed

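The labels' protocols give Trizol plus columns for RNA at 3 h and columns alone at 6 h, each with DNase, followed by Ambion amplification. The submitters' processing notes name GenomeStudio. Per the file headers, the deposited unnormalized 3 h and 6 h tables hold an intensity and a detection p-value per probe and array, with background still in the signal. The authors' cubic spline table holds normalized intensity for the 6 h samples. In the authors' processed value table the 6 h columns are log2 values centred per probe (slope 1 and correlation 1 against differences of the deposited log2 signals, 4003 probes empty), and the 3 h columns are intensity in the order of the deposited 3 h table (rank correlation 1). The column medians were 0.163 and 0.106 (unstimulated), -0.0978 and -0.0893 (Dex), 0.0458 and 0.017 (LPS) and -0.0123 and -0.197 (Dex plus LPS) at 6 h, and 167 on each 3 h array. How the authors scaled the arrays is stated by no label or header used here. The 32 columns of bead numbers and standard errors were not used. The 3 h columns carry a group and a letter but no replicate number.

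Background was corrected by normexp in limma (version 3.58.1, R version 4.3.3) from detection p-values with an offset of 16, and signals were quantile normalized as log2 within each experiment. Normalized signals are printed on the linear scale. Symbols came from the platform annotation, updated through RefSeq (23839 of 23846 named probes matched, 1851 unnamed). For the 16 member genes with several detected probes, the probe with the highest mean stood for the gene. A gene was tested where that probe was detected on both arrays of a group (48 Rab-named genes at 6 h, Rab4a missing, and 49 at 3 h). lmFit and eBayes were run on the 8 arrays of an experiment, or on all 16 for the difference between experiments, with Benjamini-Hochberg adjustment over 7791 (6 h), 8032 (3 h) or 7458 genes (both). The code was tested on simulated data. Where a gene was not above background on either array of the dimmer group, the fold is "at least" that of the brighter mean over the higher of the lowest signal well above background and its own signal. A fold is given from background-corrected values plus the offset, which understates changes of dim genes. Arrays of 6 h groups with the same replicate number did not deviate together (correlations -0.22 to 0.00906), so numbers do not pair arrays. The members, roles and pathway lists were chosen with earlier results of these data known. Named genes were every called Rab-named gene, all detected close paralogs, and up to 3 called pathway genes per direction. The 9 kinds of alternative are described under the dependence on processing. The number of arrays limits the precision.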

Additional observations from a re-analysis of the deposited data

Results flagged for a closer look

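LPS against unstimulated at 6 h and the same comparison as labelled at 3 h went opposite ways, on every array of each, in 11 Rab-named genes with an adjusted p under 0.05 in at least 1 of them. That is 22.9% of the 48 tested in both, beside 16.6% of 7458 genes. The difference itself was not tested, and the arrays labelled unstimulated at 3 h had high Tnf and Il6. As log2 change at 6 h minus that at 3 h, the values were -3.93 for Rab7b, -2.92 for Rab19, -1.52 for Rab31, -0.98 for Rab7, -0.93 for Rab1b and -0.72 for Rab34. In the other direction they were 1.79 for Rab33a, 1.71 for Rab3ip, 1.07 for Rab12, 0.95 for Rab21 and 0.77 for Rab5a. Rab7b and Rab7 passed in both experiments.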

How the results depend on the processing

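Alternatives were run gene by gene for changes that passed the test. Among these, 8 changed sign, all in the cubic spline table: LPS changes of -0.14 (Rab21) and -0.12 (Rab33a), the Dex change of -0.0525 (Rab15), Dex plus LPS against LPS for Rab15 (-0.0605), Rab3d (0.0162) and Rab7b (0.17), and Dex plus LPS against Dex for Rab2a (-0.0204) and Rab33a (-0.11). The counts of Rab-named genes called in that table were 0 higher and 2 lower for LPS, 0 for Dex, 0 for Dex plus LPS against LPS, and 0 higher and 1 lower for Dex plus LPS against Dex. For LPS at 6 h, no background correction left 1 gene called higher, with Rab33a, Rab3ip and Rab6a at 0.70, 0.48 and 0.92. In the authors' processed table the LPS changes of Rab33a, Rab3ip, Rab6b and Rab3gap2 were 0.54, 0.33, -0.66 and -0.91, under 2-fold, and Rab32 rose past 2-fold there (1.21) and with median scaling (1.28). Rab15 in Dex plus LPS against LPS at 6 h was lost, leaving 0 called, with no background correction, with an offset of 50 (0.89) and in the authors' processed table (0.42), and leaving out each array in turn gave 0 to 1. The difference of Dex effects gave 1 lower in the authors' table, and 0 to 2 higher and 0 to 1 lower with an array left out, the higher end without Dex replicate 2. As labelled at 3 h, median scaling called 1 gene higher for Dex, and leaving out 1 LPS array, lettered A in its column name, called 1 lower for LPS (range 0 to 1). With the replicate block, 4 Rab-named genes were called higher and 10 lower for LPS, 1 higher for Dex and 1 higher for Dex plus LPS against LPS at 6 h, so the block changed no call count there. The 3 h columns carry no replicate number, so no block was fitted. Fits of Dex plus LPS against LPS at 3 h, and of its difference from 6 h, on the 3 h arrays labelled LPS and Dex plus LPS only were added after seeing the data and gave 1 and 0 calls, as with all arrays. Of the counts, 201 stayed within 1.5 times and 18 moved. Many of the main counts were 0, and a 0 that stayed 0 is among the 201, so that number does not measure stability. For changes under 2-fold, losses of the adjusted p are not listed in this section. Dim genes (Rab33a, Rab3ip, Rab6b, Rab15) limit the folds, since their lower group is at background.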
